A study of Mus musculus with 6 samples.

Results

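Transcripts of 10 endothelial genes were examined in white adipose tissue of mice, taken from the subcutaneous depot: Pecam1, Cdh5, Eng, Vwf, Kdr, Flt1, Flt4, Tek, Prox1 and Lyve1. They were taken as a named list of blood and lymphatic endothelial genes, each matched by its exact symbol to 1 of the 36144 rows of the deposited table, and all 10 reached the level at which genes were tested. The study holds 6 poly-A RNA sequencing libraries, 3 titled Tumor and 3 titled WT, which the titles number as biological replicates 1 to 3 in each group. The genotype label gives the Tumor libraries as full-body knockout for Msra, the gene of a methionine sulfoxide reductase, and the WT libraries as wild type for it. The treatment label is an orthotopic transplant for all 6, and the design text has pancreatic ductal adenocarcinoma cells put into hosts of both genotypes, with fat collected 4 to 5 weeks later. The series title instead sets tumor-bearing mice against controls without a tumor, so that these sources differ on what separates the groups. The sources used here name no strain, sex, age, Msra allele or transplanted cell line. The groups are called Tumor and WT after their titles, and every difference below is Tumor minus WT.

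Endothelial cells line blood and lymphatic vessels and are held together by the cadherin that Cdh5 encodes. Vascular endothelial growth factors act on them through receptor tyrosine kinases, of which Flt1 and Kdr belong mainly to blood vessels and Flt4 to lymphatic vessels in the adult, and angiopoietins act through Tek. Prox1 is the transcription factor that gives lymphatic endothelial cells their identity. In fat, a dense capillary bed delivers fatty acids to adipocytes and adipocytes secrete VEGF-A. Subcutaneous fat also encloses lymph nodes, which carry vessels of both kinds.

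The libraries differed in which other tissues they held. Adipoq, the adipocyte hormone adiponectin, stood at 3455, 2023 and 721 TPM in Tumor replicates 1 to 3 and at 1413, 1711 and 3403 TPM in WT replicates 1 to 3. TPM is the share of a transcript among all transcripts of a library after correction for length, scaled to a sum of 1000000. Transcripts of B cells and of lymph node stroma were far lower in 2 libraries, Tumor replicate 1 and WT replicate 3, than in the other 4. The 8 B cell markers summed to 10.7, 1585 and 2320 TPM in Tumor and to 929, 755 and 5.03 TPM in WT. The 7 measured markers of lymph node stroma and high endothelium summed to 55.8, 1542 and 3084 TPM in Tumor and to 1750, 2067 and 42.7 TPM in WT. The chemokine Cxcl13 made up 29.1 TPM of this sum in Tumor replicate 1 and 34.0 TPM in WT replicate 3. Their defining genes Cd79a and Glycam1 stood at 1.71 and 1.23 TPM in Tumor replicate 1 and at 0.775 and 0.319 TPM in WT replicate 3, and were at least 235 TPM in the other 4 libraries. Msra itself was present in all libraries, at 52.9, 40.0 and 26.9 TPM in Tumor and at 51.1, 59.1 and 56.3 TPM in WT, so that the knockout named in the genotype label is not seen at the level of whole-gene transcript.

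By level, the members spanned a wide range. Averaged over the 6 libraries, Pecam1 had 119 TPM, Eng 59.9 TPM, Cdh5 54.3 TPM, Lyve1 29.2 TPM, Vwf 28.4 TPM, Kdr 25.2 TPM, Tek 17.2 TPM, Flt1 16.0 TPM, Flt4 3.61 TPM and Prox1 1.01 TPM. Pecam1 was the highest member in every library. Eng and Cdh5 changed places from library to library, as did Lyve1, Vwf and Kdr, and as did Tek and Flt1, so that these neighbours were not ordered beyond their spread. Cdh5 in Tumor replicate 3 was level with Lyve1 there, and Tek in Tumor replicate 1 was level with Lyve1 there. Flt4 and Prox1 were the lowest members in each library, in that order. A single fragment was worth 0.0384 to 0.0510 TPM for a transcript with an effective length of 1 kb, and 3 fragments 0.115 to 0.153 TPM.

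**Figure D1:**
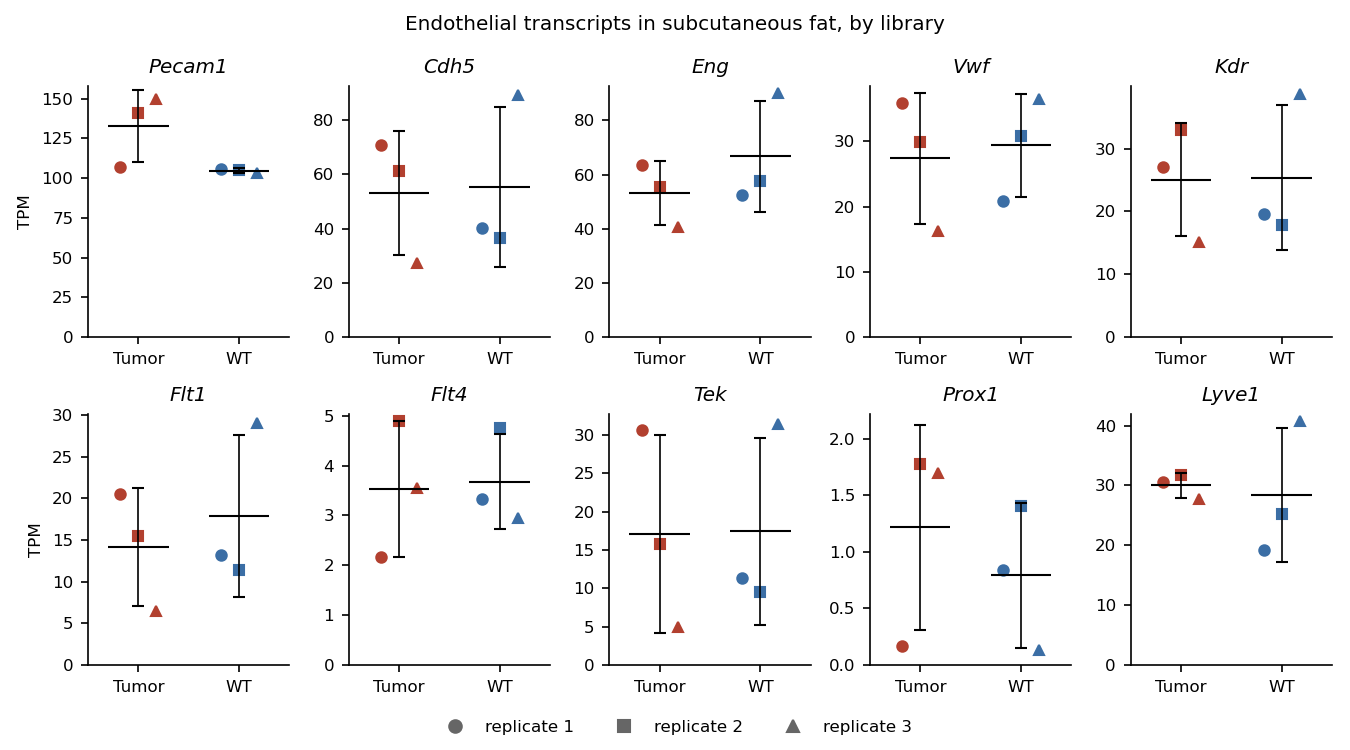
Level of each of the 10 endothelial genes in TPM (vertical axes, from 0) in Tumor and WT libraries. Each symbol is 1 library with its shape giving the replicate number, horizontal bars are group means and error bars are SD (n = 3). The 3 Tumor values of Pecam1 lie above the 3 WT values, and for the other 9 genes the groups overlap.

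Among the adhesion and blood endothelial genes, Cdh5, Eng and Vwf were each lowest in Tumor replicate 3 and highest in WT replicate 3, and Pecam1 was not. Cdh5, which encodes VE-cadherin of the endothelial junctions (chromosome 8, 104101625 to 104144511, GRCm38 with GENCODE M21), stood at 70.9, 61.4 and 27.2 TPM in Tumor replicates 1 to 3 and at 40.3, 36.7 and 89.4 TPM in WT replicates 1 to 3. The lowest value was in Tumor replicate 3 and the highest in WT replicate 3, with the other 4 libraries of both groups between them. The group means were 53.2 ± 22.9 TPM in Tumor and 55.5 ± 29.4 TPM in WT (SD, n = 3 each).

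Eng encodes endoglin, a co-receptor for BMP and TGF-beta ligands (chromosome 2, 32646595 to 32682669). It had 63.6, 55.3 and 40.5 TPM in Tumor and 52.4, 57.6 and 90.2 TPM in WT. Vwf encodes von Willebrand factor, which endothelial cells store and release to tether platelets (chromosome 6, 125546774 to 125686679). It had 35.9, 29.9 and 16.3 TPM in Tumor and 20.9, 30.8 and 36.4 TPM in WT. Both genes were lowest in Tumor replicate 3 and highest in WT replicate 3, and the groups overlapped. The annotated end of Eng meets the end of Fpgs on the opposite strand. The sample titles name a forward strand, but not whether fragments were assigned by strand. Fpgs reached 16.7 TPM at most.

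Pecam1 encodes CD31, an adhesion molecule of endothelial junctions that leukocytes and platelets also carry (chromosome 11, 106654217 to 106750628). It was the most even member, with 107, 141 and 150 TPM in Tumor and 106, 105 and 103 TPM in WT. All 3 Tumor values lay above all 3 WT values, with the lowest Tumor library, replicate 1, at 107 TPM and the highest WT library, replicate 1, at 106 TPM. The means were 133 ± 22.6 TPM in Tumor and 105 ± 1.48 TPM in WT (SD, n = 3 each), a ratio of 1.26. Beside this result, the 8 B cell markers gave the sums above, the 8 T cell markers summed to 14.8, 521 and 1320 TPM in Tumor and to 863, 589 and 10.9 TPM in WT, and the 8 macrophage markers to 828, 437 and 367 TPM in Tumor and to 321, 325 and 356 TPM in WT. The macrophage sums did not overlap between the groups either, but with median-ratio factors they did, at 790, 393 and 337 in Tumor and 323, 381 and 383 in WT. Singly, 3 of these 8 markers had every Tumor library above every WT library, against 11.8% of all genes tested. With median-ratio factors Fcgr1 stayed apart, and Csf1r and Cd68 overlapped, where 3.52% of all genes tested were higher. The part of leukocytes in the Pecam1 values was not tested.

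The VEGF and angiopoietin receptors fell into 2 patterns. Kdr encodes VEGFR2, the main signalling receptor for VEGF-A (chromosome 5, 75932827 to 75978458). It stood at 27.1, 32.9 and 15.2 TPM in Tumor and at 19.6, 17.8 and 38.7 TPM in WT. Flt1 encodes VEGFR1, which binds VEGF-A tightly and is also made as a soluble form (chromosome 5, 147561604 to 147726011). It stood at 20.5, 15.5 and 6.44 TPM in Tumor and at 13.2, 11.4 and 29.0 TPM in WT, summed over its forms. Both genes were lowest in Tumor replicate 3 and highest in WT replicate 3.

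Tek encodes TIE2, the angiopoietin receptor (chromosome 4, 94739289 to 94874976). It followed the same order as Cdh5 and Flt1 in all 6 libraries, with 30.6, 15.8 and 4.92 TPM in Tumor and 11.3, 9.51 and 31.4 TPM in WT. Its highest value was 6.38 times its lowest, the widest range among the blood endothelial members. Flt4 encodes VEGFR3, the receptor for VEGF-C and VEGF-D (chromosome 11, 49609263 to 49652739). It ran otherwise, with 2.17, 4.90 and 3.55 TPM in Tumor and 3.33, 4.75 and 2.95 TPM in WT. Its lowest values were in Tumor replicate 1 and WT replicate 3, the libraries where Tek was highest, and the groups overlapped for both genes.

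The promoters of these 4 receptors are shown because 3 of the genes varied together and Flt4 did not. RefSeq promoters of GRCm38.p6, from 250 bases before to 50 bases after a transcript start, matched 6 of the 10 members: Eng, Kdr, Flt1, Flt4, Tek and Prox1. Capitals mark 3 short motifs on either strand, AGGAAG of ETS factors, AGATAA of GATA factors and GGGCGG, the GC box. No capitals of different motifs overlap.
Flt1, chr5:147725962-147726261, minus strand: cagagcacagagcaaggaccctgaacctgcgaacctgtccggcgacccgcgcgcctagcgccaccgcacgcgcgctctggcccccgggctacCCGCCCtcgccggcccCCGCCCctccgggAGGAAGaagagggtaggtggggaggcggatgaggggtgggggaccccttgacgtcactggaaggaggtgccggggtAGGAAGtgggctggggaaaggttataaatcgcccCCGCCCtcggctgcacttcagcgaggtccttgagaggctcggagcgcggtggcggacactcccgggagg
Kdr, chr5:75978406-75978705, minus strand: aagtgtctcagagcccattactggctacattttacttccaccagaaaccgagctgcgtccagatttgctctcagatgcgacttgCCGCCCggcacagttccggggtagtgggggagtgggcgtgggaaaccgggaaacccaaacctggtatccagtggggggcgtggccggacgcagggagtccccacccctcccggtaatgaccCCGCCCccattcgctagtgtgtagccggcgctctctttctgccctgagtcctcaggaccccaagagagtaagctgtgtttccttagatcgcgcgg
Tek, chr4:94739039-94739338, plus strand: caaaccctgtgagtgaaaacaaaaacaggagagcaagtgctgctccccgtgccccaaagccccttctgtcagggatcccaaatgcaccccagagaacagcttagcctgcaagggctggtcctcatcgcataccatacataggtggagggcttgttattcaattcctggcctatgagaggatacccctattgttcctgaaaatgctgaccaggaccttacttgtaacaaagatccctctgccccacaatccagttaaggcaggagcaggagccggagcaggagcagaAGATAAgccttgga
Flt4, chr11:49609429-49609728, plus strand: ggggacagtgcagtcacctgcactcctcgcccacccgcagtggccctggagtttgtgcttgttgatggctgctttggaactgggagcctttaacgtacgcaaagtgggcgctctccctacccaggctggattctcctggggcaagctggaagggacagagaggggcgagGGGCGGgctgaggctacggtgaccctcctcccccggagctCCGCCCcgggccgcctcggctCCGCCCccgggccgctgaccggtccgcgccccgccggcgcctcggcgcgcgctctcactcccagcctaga
AGGAAG occurs 2 times in the Flt1 window and 2 times in that of Eng, and is not found in the windows of the other 4 matched genes. It occurs in 35.4% of all 32851 promoter windows of the same length, so that 2 of 6 genes is near that share. AGATAA occurs once, in Tek, against 11.2% of all windows. GGGCGG occurs 3 times in Flt1, 3 times in Flt4 and 2 times in Kdr, is also present in Prox1, and is found in 35.7% of all windows. In these windows, none of the 3 motifs was shared by the receptors that varied together and missing from Flt4. Other motifs and regions were not searched, and why these genes varied together was not tested.

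The 2 members listed as lymphatic, Prox1 and Lyve1, did not vary together. Flt4, at 2.17 TPM in Tumor replicate 1 and 2.95 TPM in WT replicate 3, was lowest in the same libraries as Prox1. Prox1 (chromosome 1, 190118035 to 190170714) stood at 0.171, 1.78 and 1.7 TPM in Tumor and at 0.844, 1.41 and 0.129 TPM in WT. The values of Tumor replicate 1 and WT replicate 3 were the lowest by far, so that the highest library had 13.8 times the level of the lowest. By the fragment worth above, either of these 2 values rests on about 10 fragments if all came from the shortest annotated coding transcript and about 26 if all came from the longest. The 2 libraries with little Prox1 are those with few B cell and lymph node transcripts, and the part of lymph node tissue in the Prox1 values was not tested. Here, as for each gene in whole tissue, fewer cells of a type and less RNA per cell cannot be told apart.

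Lyve1 encodes a hyaluronan receptor of lymphatic endothelium that some tissue macrophages also carry (chromosome 7, 110850607 to 110863239). It had 30.6, 31.8 and 27.7 TPM in Tumor and 19.2, 25.2 and 40.8 TPM in WT. The 3 Tumor libraries lay close to each other and inside the range of the WT libraries. Lyve1 was not low where Prox1 was low. In Tumor replicate 1 and WT replicate 3 it was 30.6 and 40.8 TPM, while the macrophage gene Folr2 had 219 and 114 TPM there. Folr2 had 76.9 and 38.0 TPM in Tumor replicates 2 and 3 and 72.9 and 56.6 TPM in WT replicates 1 and 2. The macrophage markers did not run alike. Of 8, 3 were higher in both Tumor replicate 1 and WT replicate 3 than in the other 4 libraries, and 1 was lower. Over all genes tested, 22.2% were higher in both and 23.4% were lower in both. The lower one, Timd4, had 4.21 TPM in Tumor replicate 1 and 3.95 TPM in WT replicate 3. The part of macrophages in the Lyve1 values was not tested.

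The likeness of profiles was measured as the root-mean-square difference from Cdh5 on log2(TPM + 1), centred per gene, over the 6 libraries. The members closest to Cdh5 were Flt1 at 0.155 and Kdr at 0.186, at places 113 and 223 of 14139 other genes. Vwf at 0.318, Eng at 0.323 and Tek at 0.335 came next, at places 1372, 1435 and 1570, followed by Lyve1 at 0.422 and place 2808. Pecam1 at 0.702, Flt4 at 0.761 and Prox1 at 1.04 were the least like Cdh5. The same measure taken from Prox1 placed Flt4 first among the members at 0.321 and Pecam1 second at 0.410, at places 942 and 2476 over all genes. These values describe 6 libraries that share large differences in tissue content. The measure depends on the size of the differences as well as on their order. Tek has the same order of libraries as Cdh5, yet came after Vwf and Eng. Pecam1 varied little, and the pseudocount shrinks the differences of Prox1, so that their nearness is not a likeness of pattern alone.

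Over all genes, the nearest to Cdh5 were Pde3b, a phosphodiesterase through which insulin restrains lipolysis in adipocytes, at 0.0526, Tead1, a transcription factor of the Hippo pathway, at 0.0558, and Ephb4, an ephrin receptor of veins, at 0.0609. Ephb4 stood at 17.9, 15.7 and 6.52 TPM in Tumor and at 9.97, 9.80 and 21.4 TPM in WT. The nearest to Prox1 were Rgs13 at 0.0638, Rnf32 at 0.0789 and Angptl7 at 0.0827. Rgs13, a regulator of G protein signalling known from germinal centre B cells, stood at 0.0381, 1.4 and 1.4 TPM in Tumor and at 0.819, 1.11 and 0 TPM in WT. Of the 10 members, 6 were lowest in Tumor replicate 3 (Cdh5, Eng, Vwf, Kdr, Flt1 and Tek), as were all 8 adipocyte markers, against 23.4% of all genes tested.

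**Figure D2:**
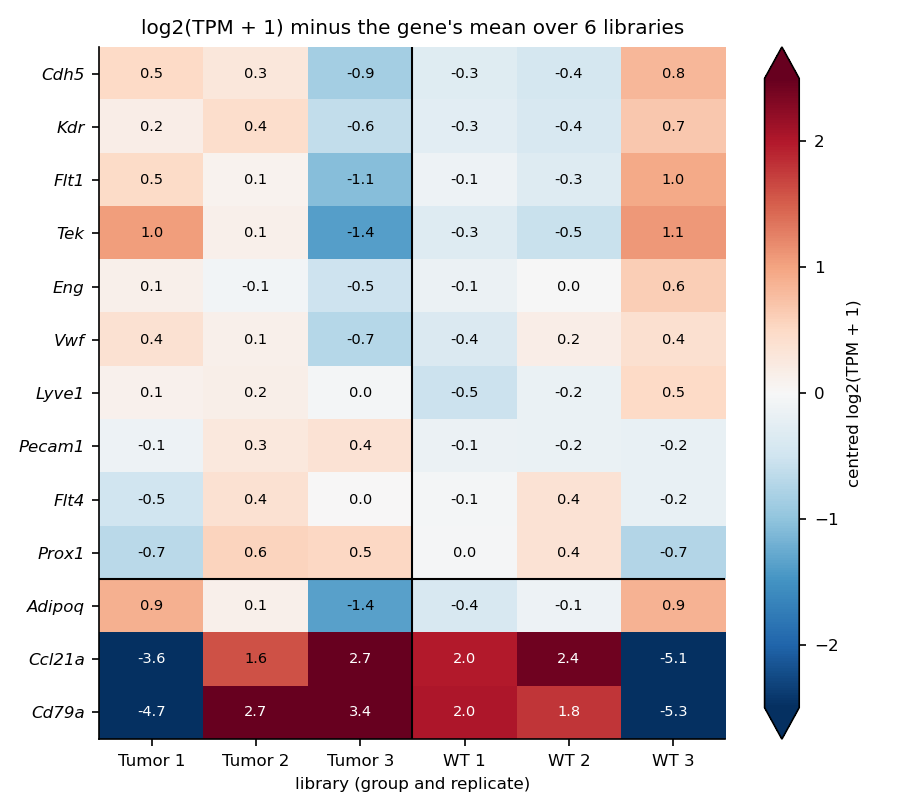
Centred log2(TPM + 1) of the 10 endothelial genes (above the line) and of Adipoq, the node chemokine Ccl21a and the B cell gene Cd79a (below it), in 3 Tumor and 3 WT libraries. Each cell gives its value, and values beyond the colour bar take its end colours. Cdh5, Kdr, Flt1, Tek, Eng and Vwf are lowest in Tumor replicate 3, where Adipoq is lowest too, and Prox1 is lowest in Tumor replicate 1 and WT replicate 3, as are Ccl21a and Cd79a.

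Between the groups, none of the 10 members passed the test. The test was limma on log2(TPM + 1) over the 14144 genes that reached 1 TPM in 3 or more of the libraries, and an adjusted p is adjusted over all of them by Benjamini and Hochberg. Of all genes 0 passed at an adjusted p below 0.05 (0%), with 771 at an unadjusted p below 0.05, none of which was a member. Pecam1 had the smallest p of the 10, with an adjusted p of 0.737 in limma for a log2 difference of 0.32 (SE 0.176). Its 95% interval, from -0.11 to 0.75, covers no difference as well as a higher level in Tumor by more than the observed ratio.

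Of the other 9 differences, that of Eng was a little larger than its SE and the rest were smaller than theirs. Kdr differed by 0.0019 (SE 0.404), Cdh5 by -0.05 (SE 0.488), Flt4 by -0.07 (SE 0.320), Vwf by -0.13 (SE 0.353) and Tek by -0.14 (SE 0.723). Flt1 and Eng had the most negative values, -0.33 (SE 0.517) and -0.31 (SE 0.277), and Lyve1 and Prox1 were at 0.14 (SE 0.286) and 0.27 (SE 0.476). The limma adjusted p of these 9 ran from 0.769 for Eng to 0.998 for Kdr. The intervals are wide: that of Tek reached from -1.90 to 1.63 and that of Cdh5 from -1.24 to 1.14, so that levels more than 2-fold higher or lower in Tumor lie within them.

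The median of the 10 differences was -0.06, with 4 positive and 6 negative, where the median of all genes tested was 0.23, with 10856 positive and 3288 negative. With median-ratio factors, which bring the median of all genes to 0.03, the members' median was -0.26, with Pecam1 at 0.09, Flt1 at -0.55, and Kdr and Lyve1 turned to -0.22 and -0.08. With upper-quartile factors it was -0.28, with the median of all genes at 0.01. Without Tumor replicate 3 the members' median was 0.20 and without WT replicate 3 it was 0.19, while it stayed negative without any 1 of the other 4 libraries. In the 4 libraries left without Tumor replicate 1 and WT replicate 3, the median was 0.07, Pecam1 differed by 0.46 (limma adjusted p = 0.555) and Lyve1 by 0.41.

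Pecam1 was the 1 member of 10 with every Tumor library above every WT library, which held for 11.8% of all genes tested, and 0 members had every Tumor library below every WT library, which held for 3.24%. That count is near the share over all genes. It also depended on scaling: with median-ratio factors Pecam1 stood at 102, 127 and 137 in Tumor and at 107, 123 and 111 in WT. With either median-ratio or upper-quartile factors 0 members were separated. Of all genes tested, 3.52% were then higher and 6.87% lower with median-ratio factors, and 3.32% and 6.46% with upper-quartile factors.

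**Figure D3:**
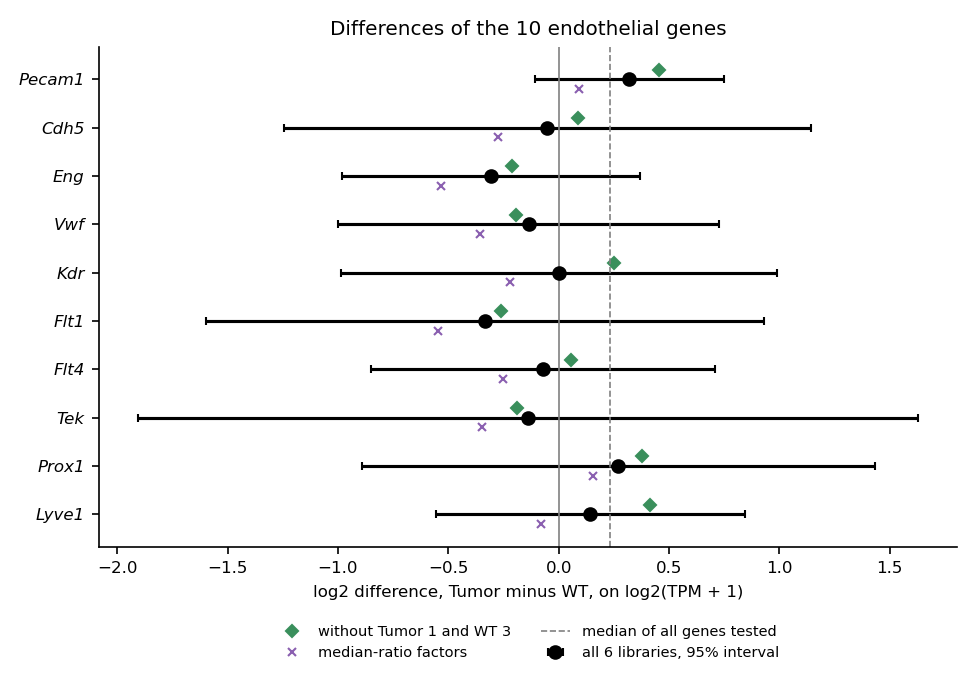
Log2 difference, Tumor minus WT, of each endothelial gene on log2(TPM + 1), with black points and bars for the fit of 6 libraries and its 95% interval, green diamonds for the fit without Tumor replicate 1 and WT replicate 3, and crosses for median-ratio factors. Each interval covers 0, and the dashed line is the median of all genes tested, 0.23.

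Within a library, the ratio of 2 genes does not depend on how that library is scaled, and the members were therefore also set against Cdh5. The ratio of Flt1 to Cdh5 was the steadiest, at 0.290, 0.253 and 0.237 in Tumor and at 0.328, 0.310 and 0.325 in WT. All 3 Tumor ratios lay below all 3 WT ratios. The log2 difference was -0.31, with means of -1.95 ± 0.149 in Tumor and -1.64 ± 0.043 in WT (SD, n = 3 each). A 2-sided exact permutation test gave p = 0.1, the smallest that 3 against 3 libraries allow, and an adjusted p of 0.8 over the 9 ratios. Since the groups did not overlap, leaving out libraries could not turn the sign. With Pecam1 in place of Cdh5 the difference was -0.69 for Flt1, and it was negative for 7 of the 8 members set against Pecam1, which was itself higher in Tumor. A ratio to Cdh5 that was lower in all 3 Tumor libraries was found for 1.94% of the other genes tested, and among the 9 ratios for Flt1 alone. The share with a higher ratio was not counted, although the test was 2-sided.

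Kdr kept close to Cdh5 as well, with ratios of 0.382, 0.537 and 0.557 in Tumor and 0.486, 0.485 and 0.432 in WT, which overlapped. Its highest ratio was 1.46 times the lowest, against 1.39 times for Flt1 and 43.2 times for Prox1. Pecam1 had 1.51, 2.30 and 5.50 times the Cdh5 level in Tumor and 2.63, 2.87 and 1.16 times in WT. The order of the libraries by this ratio was the inverse of their order by Cdh5 alone, which ranged 3.28-fold against 1.45-fold for Pecam1. Lyve1 had 0.432, 0.519 and 1.02 times the Cdh5 level in Tumor and 0.476, 0.687 and 0.456 times in WT. For these and the other ratios the groups overlapped, with exact permutation p from 0.5 to 0.8.

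**Figure D4:**
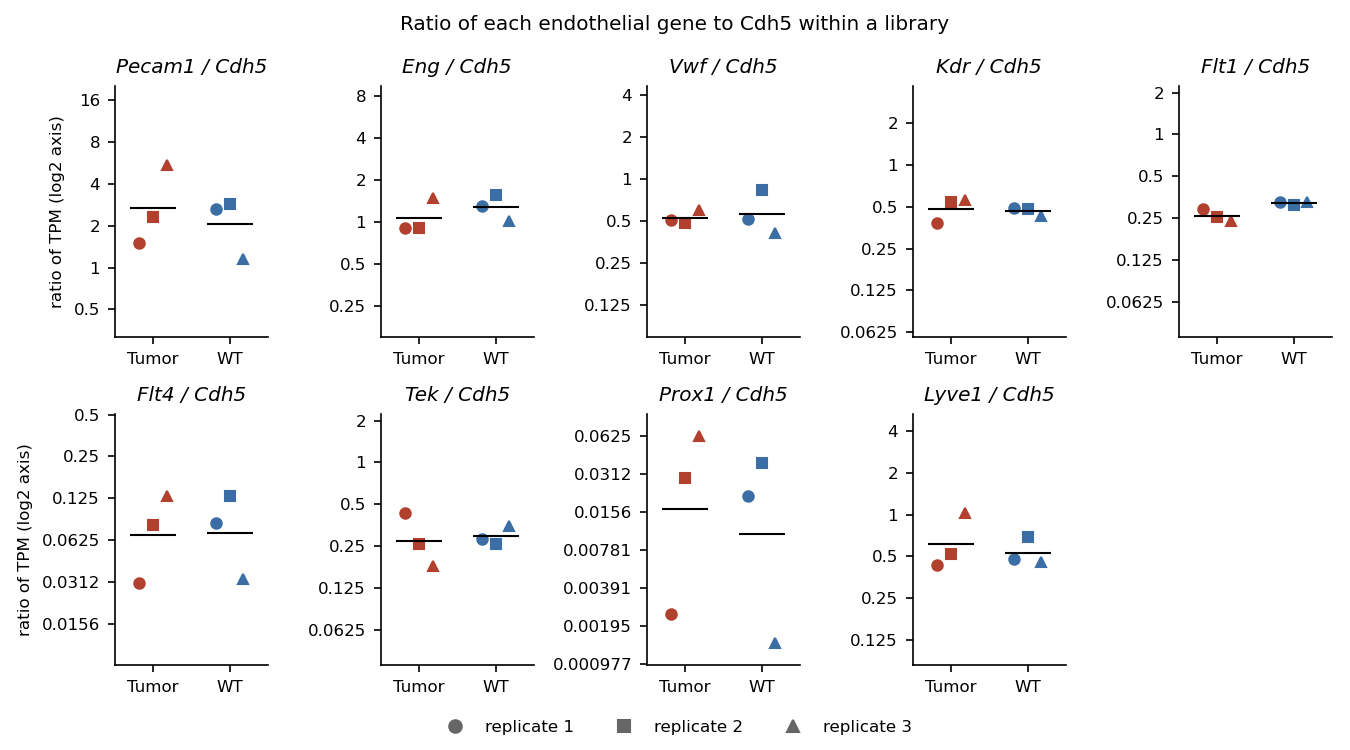
Ratio of the TPM of each of 9 endothelial genes to that of Cdh5 in the same library, on log2 axes, in Tumor and WT. Symbols are libraries and bars are geometric means (n = 3). The Flt1 ratios of the Tumor libraries, 0.237 to 0.290, lie below those of the WT libraries, 0.310 to 0.328, and the other ratios overlap.

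The ligands and co-receptors of these pathways showed no called change, with 0 of 13 tested past the threshold, 10 positive and 3 negative differences and a median of 0.15. Over all genes tested the median was 0.23, with 10856 positive and 3288 negative differences. Vegfa, the ligand of Kdr and Flt1, stood at 271, 217 and 118 TPM in Tumor and at 174, 178 and 323 TPM in WT, lowest in Tumor replicate 3 and highest in WT replicate 3 like these receptors. Vegfb, which binds Flt1, had 131, 139 and 55.0 TPM in Tumor and 105, 132 and 179 TPM in WT. Pgf, another ligand of Flt1, averaged 3.61 ± 1.24 TPM in Tumor and 3.02 ± 1.28 TPM in WT (SD, n = 3 each).

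The ligands of Flt4 differed in level. Vegfc averaged 2.99 ± 0.499 TPM in Tumor and 2.53 ± 0.328 TPM in WT, and Vegfd 14.7 ± 11.9 TPM in Tumor and 16.7 ± 6.94 TPM in WT (SD, n = 3 each). Vegfd was highest in Tumor replicate 1 at 27.2 TPM and lowest in Tumor replicate 3 at 3.56 TPM. Nrp1 and Nrp2, neuropilin co-receptors, averaged 40.6 ± 18.9 and 15.6 ± 2.11 TPM in Tumor and 36.7 ± 20.1 and 12.1 ± 2.12 TPM in WT.

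Of the angiopoietins, Angpt1, the agonist of Tek, had 14.5, 10.4 and 2.88 TPM in Tumor and 6.37, 4.32 and 14.5 TPM in WT. Angpt2, which can oppose it, had 5.20, 5.49 and 4.75 TPM in Tumor and 3.26, 4.13 and 3.68 TPM in WT. Angpt2 was the 1 gene of these 13 whose groups did not overlap. Its log2 difference of 0.39 (SE 0.208) had an adjusted p of 0.737 in limma, and with median-ratio factors its groups overlapped. Every Tumor library lay above every WT library for 11.8% of all genes tested. Tie1, the partner receptor of Tek, differed by 0.06, Ptprb, a phosphatase that acts on Tek, by 0.04, and Acvrl1, the receptor kinase that works with endoglin, by 0.30, each with overlapping groups. Tgfb1 had 45.3, 73.0 and 103 TPM in Tumor and 62.7, 57.5 and 23.9 TPM in WT, so that its highest and lowest libraries were the opposite of those of Cdh5.

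Further endothelial genes were read from 5 lists, to be set against the same median of 0.23 over all genes tested. Of 26 other pan-endothelial genes 0 passed, 14 had a positive and 12 a negative difference, and the median was 0.0062. Tie1 and Ptprb are in this list and the last. Clec14a, an endothelial lectin-like protein, was the 1 gene of this list with no overlap, at 4.01, 7.36 and 5.18 TPM in Tumor and at 3.70, 3.95 and 3.66 TPM in WT, and its limma adjusted p was 0.737. With median-ratio factors its groups overlapped. The share of all genes tested with every Tumor library higher was 11.8%. Of 11 capillary genes of fat 0 passed and 10 had a negative difference, with a median of -0.28. The capillary list includes Fabp4, Lpl and Cd36, which adipocytes express. Tcf15, a transcription factor of fat capillaries, averaged 12.1 ± 5.57 TPM in Tumor and 18.9 ± 6.49 TPM in WT, and Fabp4 8618 ± 4656 TPM in Tumor and 12820 ± 3228 TPM in WT (SD, n = 3 each). In this list 10 of 11 genes were lowest in Tumor replicate 3, the library with the least Adipoq, against 23.4% of all genes tested.

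Of 10 arterial genes 0 passed, with 6 positive differences and a median of 0.11. Gja4, the connexin 37 of arterial endothelium, had 11.4, 11.2 and 13.1 TPM in Tumor and 6.90, 6.80 and 9.06 TPM in WT, 1.57 times as much, with a log2 difference of 0.59 (SE 0.198, unadjusted p = 0.0237 and adjusted p = 0.737 in limma). Dll4, a Notch ligand of arterial and sprouting endothelium, had 7.41, 9.66 and 6.88 TPM in Tumor and 5.51, 6.33 and 6.25 TPM in WT. Neither gene's groups overlapped, but with median-ratio factors those of Dll4 did, and with upper-quartile factors those of both did. These are 2 of 10 genes, where 11.8% of all genes tested had every Tumor library above every WT library. Of 8 venous and inflamed endothelial genes 0 passed, with a median of 0.15. Sele and Selp, the selectins of activated endothelium, averaged 1.99 ± 0.995 and 5.65 ± 3.52 TPM in Tumor and 1.08 ± 0.446 and 7.74 ± 4.84 TPM in WT (SD, n = 3 each), and their groups overlapped.

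Of 13 other lymphatic genes 0 passed, with 10 positive differences and a median of 0.30. Sema3d and Itga9, an integrin subunit of lymphatic valves, had the smallest p, with log2 differences of 0.43 (SE 0.281) and 0.33 (SE 0.271). In this list 5 genes were lowest in Tumor replicate 1 and WT replicate 3 together, as Prox1 was, which is 38.5% of the 13 against 23.4% of all genes tested. Among them is Ccl21a, a chemokine of lymphatic vessels and node stroma that also counts in the node list above, at 24.0, 913 and 1891 TPM in Tumor and at 1189, 1619 and 7.98 TPM in WT.

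**Figure D5:**
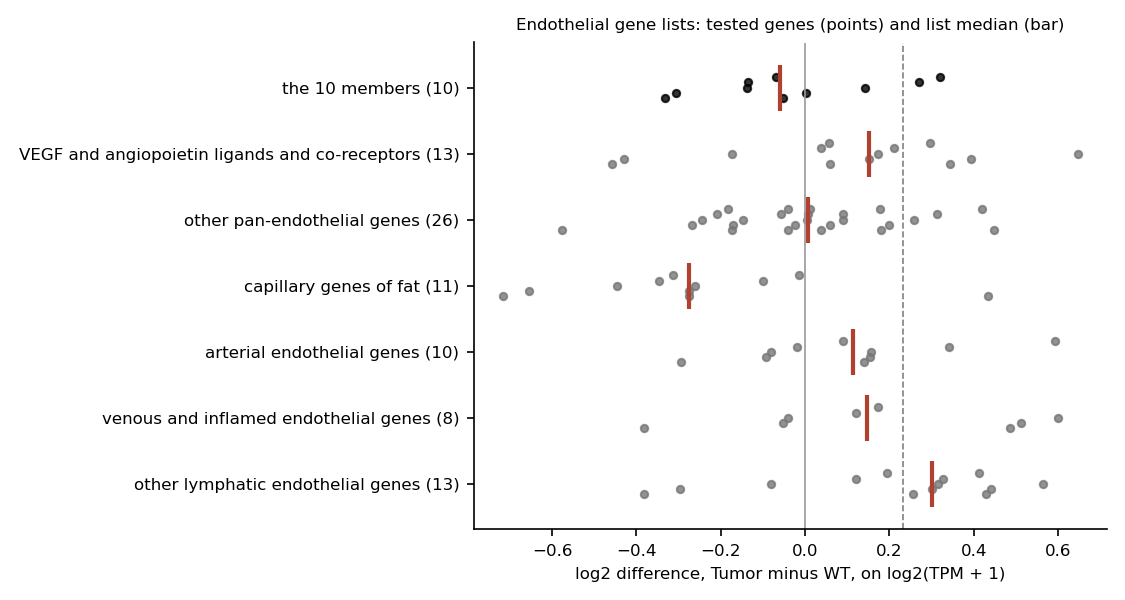
Log2 difference, Tumor minus WT, on log2(TPM + 1) of every tested gene (points) in the 10 members and 6 further endothelial lists, with the number tested in brackets and the list median as a red bar. The dashed line is the median of all genes tested, 0.23. List medians run from -0.28 for capillary genes to 0.30 for other lymphatic genes, and the lists overlap.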

How the data were processed

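Per the labels' protocols, RNA with an integrity number above 7 was enriched for poly-A transcripts and made into libraries with TruSeq chemistry. The submitters' processing notes list the build GRCm38.p6 and DESeq2, with no role. The aligner, quantification tool and annotation were not stated there or in the labels. The authors deposited 1 table, named as raw counts, whose values are TPM by their form: they are not whole and each column sums to 1000000. Totals of reads are therefore unknown. The worth of 1 fragment was read from single-transcript genes over 1 kb, where low values were whole multiples to within 0.15 in 81.9% to 85.2% of cases, and it covers counting error only.

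Columns were matched to samples by their description labels and grouped by title. The 2 groups have column names with widely separated numbers, and a batch that follows these numbers cannot be told apart from the groups. limma 3.58.1 in R 4.3.3 was fitted to log2(TPM + 1) with group alone, a mean-variance trend and robust moderation, for genes with at least 1 TPM in 3 libraries. Differences on this scale understate changes of low genes. Alternatives were other pseudocounts, filters, scaling factors (median-ratio and upper-quartile) and moderation settings, a replicate block, each library left out, and the 4 libraries rich in lymph node transcripts. Ratios used TPM without a pseudocount. Coordinates are from GENCODE M21, in which 35859 rows matched 1 gene. The members, gene lists and tests were chosen with earlier results of these data known. Named genes are the members, all tested ligands and co-receptors, from each further endothelial list up to 4 genes without overlap or else the 2 of smallest p, the 3 nearest profiles to Cdh5 and Prox1, and the first gene of each marker list. Folr2, Timd4, Fcgr1, Cd68, Lpl, Cd36, Ccl21a, Cxcl13, Myh11, Cspg4 and Fpgs were named after their values were seen. Python 3.11.15, pandas 2.3.3, numpy 2.4.6 and matplotlib 3.10.9 were used.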

Additional observations from a re-analysis of the deposited data

How the results depend on the processing

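The count of genes past the threshold was 0 under all 16 alternatives with limma, and no member was called in any of them. Unadjusted p below 0.05 was reached by 183 to 1494 genes. The members' median ranged from -0.28 to 0.20. It was positive without Tumor replicate 3, without WT replicate 3 and in the 4 libraries with lymph node transcripts, and negative otherwise. The median of the members in single libraries, on log2(TPM + 1), had a pooled SD between replicates of 0.516. That SD is not the error of a difference between groups. Prox1 was not tested at 5 TPM, nor without Tumor replicate 2, Tumor replicate 3 or WT replicate 2, and Flt4 was not tested at 5 TPM. Fits without Tumor replicate 3 or WT replicate 3 turned the sign of several uncalled differences.

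With 1 library left out at a time, the log2 differences ran from -0.31 to 0.36 for Cdh5, -0.36 to 0.19 for Vwf, -0.22 to 0.34 for Kdr, -0.65 to 0.11 for Flt1, -0.28 to 0.17 for Flt4, -0.694 to 0.515 for Tek, -0.031 to 0.679 for Prox1 and -0.095 to 0.429 for Lyve1. Cdh5 was at 0.089 and Flt4 at 0.054 in the 4 libraries with lymph node transcripts. Kdr was at -0.22 and Lyve1 at -0.08 with median-ratio factors, and at -0.24 and -0.10 with upper-quartile factors. Over all alternatives Pecam1 ran from 0.07 to 0.47, and Eng from -0.55 with upper-quartile factors to -0.07 without WT replicate 3, with -0.13 without Tumor replicate 3. These settings change the samples or the scale by construction.

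For the log2 ratios to Cdh5 the same ranges were -0.14 to 0.79 for Pecam1, -0.32 to 0.20 for Vwf, -0.045 to 0.228 for Kdr, -0.60 to 0.53 for Flt4, -0.45 to 0.18 for Tek, -0.79 to 2.02 for Prox1 and -0.16 to 0.45 for Lyve1. They were -0.39 to -0.25 for Flt1, whose sign is fixed because its groups do not overlap, and -0.50 to -0.11 for Eng. With Pecam1 as denominator Kdr was at -0.32 and Lyve1 at -0.17.

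Libraries of equal replicate number were not the most alike: their deviations from the group means correlated across genes at -0.758, 0.205 and -0.843. Tumor replicate 1 and WT replicate 3 correlated at 0.853. The libraries share large differences in tissue content, so that a weaker pairing by replicate number could not be seen in these values. With the replicate block 0 genes passed in limma, 183 had an unadjusted p below 0.05, and the members' median stayed at -0.06.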

Other observations

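Mural cells, the pericytes and smooth muscle that wrap vessels, were described by 10 markers, of which 0 passed the test in limma and 7 had a positive difference, with a median of 0.27. The median of all genes tested was 0.23, with 10856 positive and 3288 negative. Rgs5, a pericyte gene, had 86.1, 72.6 and 45.3 TPM in Tumor and 51.2, 50.7 and 78.1 TPM in WT. Chosen after their values were seen, 2 markers had groups that did not overlap, in opposite directions. Over all genes tested, groups without overlap were higher in Tumor for 11.8% and lower for 3.24%. Myh11, the smooth muscle myosin, had 13.4, 13.7 and 11.1 TPM in Tumor and 6.51, 8.69 and 9.33 TPM in WT, and Cspg4, the proteoglycan NG2, had 22.0, 18.6 and 6.37 TPM in Tumor and 27.4, 23.7 and 41.2 TPM in WT. The groups of Cspg4 stayed apart with median-ratio and upper-quartile factors, and those of Myh11 overlapped with the upper-quartile ones. With these 2 sets of factors, 6.87% and 6.46% of all genes tested were lower in Tumor without overlap, and 3.52% and 3.32% were higher.

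Of 5 red cell markers and 2 tested platelet markers, 0 passed the test. Hba-a1, an alpha globin of red cells, had 302, 763 and 159 TPM in Tumor and 219, 628 and 295 TPM in WT. Pf4, a platelet chemokine that some macrophages also express, had 218, 67.6 and 20.3 TPM in Tumor and 53.6, 66.4 and 119 TPM in WT, while of the 6 platelet markers 4 did not reach the level tested. Other tissue content differed too. Csf1r, of macrophages, had 129, 79.2 and 83.4 TPM in Tumor and 55.7, 51.0 and 66.8 TPM in WT. Pdgfra, of fibroblasts, had 36.3, 16.9 and 9.36 TPM in Tumor and 11.9, 7.44 and 24.7 TPM in WT. Acta1, of skeletal muscle, had 410, 135 and 575 TPM in Tumor and 0.953, 612 and 2.82 TPM in WT. Cd3e, of T cells, had 2.00, 67.0 and 167 TPM in Tumor and 119, 64.4 and 0.549 TPM in WT.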
